A study of Homo sapiens with 6 samples.

Results

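The imprinted genes are a listed set of 36 human genes of which only the copy inherited from 1 parent is expressed, at least in some tissues or from some start sites. Members were matched by symbol to the named rows of a gene expression array, and where a gene had several rows the brightest row was used. Of the 36 genes, 22 had a named row and are described here, out of 14884 named genes in all. By domain, 4 of 5 genes on 14q32, 1 of 7 on 11p15, 4 of 5 on 15q11, 3 of 4 on 7q and 10 of 15 at other loci were measured. The 14 members with no named row were MEG8, H19, IGF2, CDKN1C, KCNQ1, PHLDA2, SLC22A18, SNRPN, PEG3, ZIM2, SGCE, DIRAS3, ZDBF2 and NLRP2, so most of the 11p15 growth domain is not analysed here.

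Imprinting is set up by DNA methylation that eggs and sperm place differently on control regions, and that dividing cells copy at each replication. A methylated control region silences some genes of its domain and lets others be expressed, so neighbouring genes are often read from opposite parental copies. Pluripotent stem cell lines are known to lose or gain such marks at some loci during culture. An expression array reads both parental copies together, so every value below is a total level and says nothing of which copy was read.

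The cells were clones of H9, an established human embryonic stem cell line. All clones had been transduced with a lentiviral vector in which the EF1α promoter drives eGFP, sorted for eGFP and a surface antigen of pluripotent cells, and grown from single cells on mouse embryonic fibroblast feeders. Their medium was conditioned by such feeders, with bFGF at 8 ng/ml. The CTRL clones carried the vector with eGFP alone, the gamma_ON clones a vector that adds H2A.X with S139E, and the gamma_OFF clones a vector that adds H2A.X with T136A and S139A. H2A.X is the histone variant that is phosphorylated at S139 around DNA breaks. S139E puts a negatively charged residue at that site, and S139A leaves it without a hydroxyl group to phosphorylate. Each group had 2 arrays of total RNA from whole clones. The labels do not say whether the 2 arrays of a group came from separate clones, and they describe no change to the cells' own H2A.X gene, which had no named row on the array and was not analysed here.

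Values are log2 array signals, so a difference of 1 is a doubling. A difference was called at an adjusted p under 0.05, from 1 limma fit to all 14884 genes. Array medians lay between 6.11 and 6.25. The arrays of a group correlated over all genes at Pearson's r of 0.994 in CTRL, 0.994 in gamma_ON and 0.986 in gamma_OFF, where genes do not count as replicates. The array of gamma_OFF replicate 2 stood apart: the SD of its gene values was 1.64, and the other 5 arrays had SDs from 1.70 to 1.81. Of 10 pluripotency markers 9 were measured, and their summed linear signal was 16930 to 17866 in CTRL, 18990 to 19927 in gamma_ON and 20603 to 21584 in gamma_OFF. The marker lists, like the other lists here, were chosen with earlier results of these data known. Markers of hepatic and yolk sac endoderm moved most with gamma_ON: 8 of 10 were called higher than in CTRL (0.739% of all genes were). All 8 were also called after quantile normalization, while TTR and APOA2 were lost in some fits with 1 array left out. In gamma_OFF against CTRL 5 of 10 were called (50% beside 8.85% of all genes), AFP and AHSG higher and TTR, APOA2 and FGB lower. Quantile normalization kept 3 of these 5, without TTR and AHSG. AFP, AHSG, TTR and FGB were each lost in some fits with 1 array left out. The list medians were 2.28 in gamma_ON and -0.07 in gamma_OFF. The summed signal of the list was 2736 to 3750 in CTRL, 12025 to 13033 in gamma_ON and 2100 to 2126 in gamma_OFF. The sums of 4 mesoderm markers were 775 to 890 in CTRL, 1678 to 1746 in gamma_ON and 953 to 1089 in gamma_OFF. In gamma_ON against CTRL 2 of these 4 were called higher (50% beside 0.739% of all genes), and 1 of the 4 had a negative difference. MIXL1 rose by 1.94 (adjusted p = 0.000866) and HAND1 by 1.59 (adjusted p = 0.0012), both called also after quantile normalization. The sums of 6 neural markers were 1765 to 1825 in CTRL, 1240 to 1280 in gamma_ON and 1318 to 1550 in gamma_OFF. Those of 4 fibroblast markers were 1451 to 1640, 1754 to 1765 and 1118 to 1233, and those of 4 trophoblast markers 373 to 426, 416 to 429 and 296 to 318, in the same order of groups. A sum does not give the direction of every marker. In gamma_OFF against CTRL 3 of the 4 trophoblast markers had positive differences (median 0.18), while GATA3 fell by 0.83. Of the 6 neural markers 3 were positive (median 0.04). In gamma_ON against CTRL 2 of the 4 fibroblast markers were negative, with TAGLN called lower (-0.62). The array files give no signal over background, so a marker's signal alone does not show that it was expressed. The part of other cell types in the results below was not tested.

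Across the 22 measured members, few genes passed the test in any comparison. In gamma_ON against CTRL 2 of 22 were called, DLK1 and KCNQ1OT1, both lower, where 1.55% of all genes were called, 0.739% higher and 0.806% lower. In gamma_OFF against CTRL 3 of 22 were called, DLK1, KCNQ1OT1 and PEG10, all lower, where 8.85% of all genes were called, 2.77% higher and 6.08% lower. In gamma_ON against gamma_OFF 3 of 22 were called, MEG3 lower and PEG10 and PLAGL1 higher in gamma_ON, where 5.99% of all genes were called, 3.98% higher and 2.02% lower. The moderated F test over the 3 groups called 5 of 22, which were these 5 genes, against 8.32% of all genes. The members' shares, 9.09%, 13.6%, 13.6% and 22.7%, rest on 2 to 5 genes. The median log2 difference of the members was -0.02 for gamma_ON against CTRL, -0.20 for gamma_OFF against CTRL and 0.09 for gamma_ON against gamma_OFF, beside 0.02, 0.01 and 0.02 for all genes. The arrays of the groups compared did not overlap for 12, 18 and 17 of the 22 members, and for 52.4%, 61.3% and 63.3% of all genes. At an unadjusted p under 0.05 the counts were 4, 9 and 11 of 22 (18.2%, 40.9% and 50%), beside 14.8%, 30.4% and 33.0% of all genes. Both comparisons with CTRL use the same 2 CTRL arrays.

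**Figure D1:**
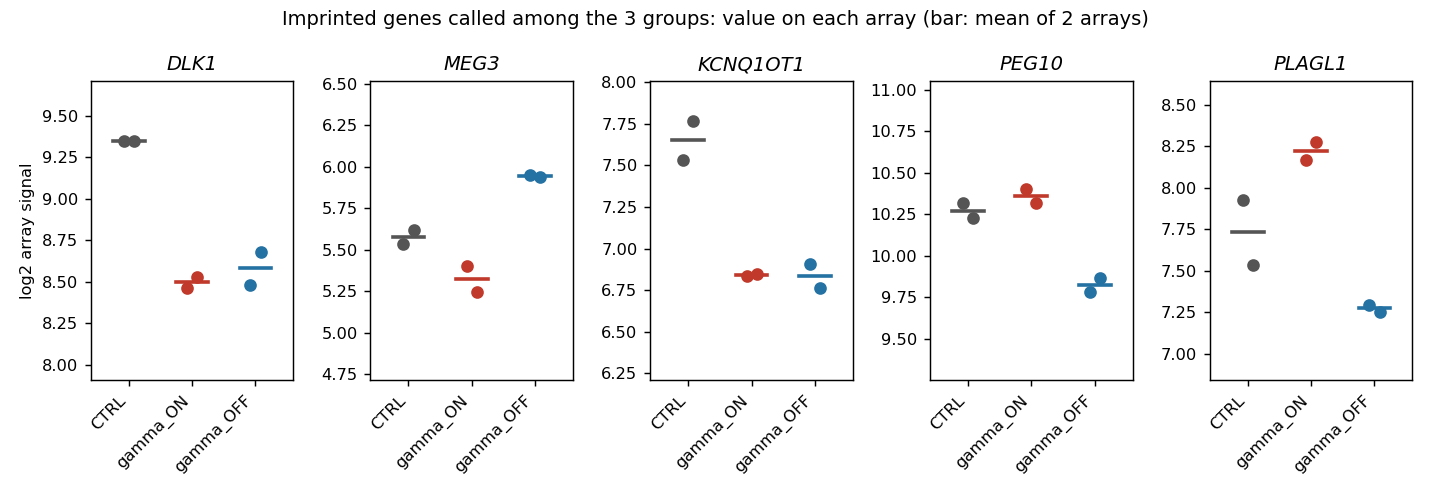
Log2 array signal (y axis) of the 5 imprinted genes called by the F test, on each of the 2 arrays of CTRL, gamma_ON and gamma_OFF (x axis), with a bar at the mean of the group. DLK1 and KCNQ1OT1 lie lower on all 4 H2A.X arrays than on both CTRL arrays, PEG10 is lower on the gamma_OFF arrays alone, and MEG3 and PLAGL1 have CTRL between gamma_ON and gamma_OFF.

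The 14q32 domain holds the paternally expressed protein genes DLK1 and RTL1 and the maternally expressed noncoding RNAs MEG3, MEG8 and MEG9, with a long row of microRNA genes inside the maternally expressed transcripts. DLK1, a transmembrane protein related to Notch ligands that restrains differentiation of several progenitor cells, was lower with both forms of H2A.X. Its log2 signal was 9.35 on both CTRL arrays, 8.47 and 8.53 on the gamma_ON arrays, and 8.48 and 8.68 on the gamma_OFF arrays. All 4 H2A.X arrays thus lay below both CTRL arrays, while the gamma_ON and gamma_OFF arrays overlapped. DLK1 fell by 0.85 on the log2 scale in gamma_ON (SE 0.12, 1.80-fold lower, adjusted p = 0.0112) and by 0.77 in gamma_OFF (SE 0.12, 1.70-fold lower, adjusted p = 0.0103). Between gamma_ON and gamma_OFF the difference was -0.08, with a 95% interval from -0.36 to 0.19 (adjusted p = 0.637). In bulk RNA such as this, fewer cells that express a gene and less RNA per expressing cell cannot be told apart. The gamma_ON call was lost without either CTRL array (adjusted p = 0.0836 without replicate 1 and 0.121 without replicate 2) and without either gamma_ON array (0.132 and 0.0869). The gamma_OFF call was lost without CTRL replicate 1 (adjusted p = 0.0743) or CTRL replicate 2 (0.0853).

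MEG3 is a long noncoding RNA that begins downstream of DLK1 and is read from the other parental copy. Its log2 signal was 5.53 and 5.62 in CTRL, 5.40 and 5.25 in gamma_ON, and 5.95 and 5.94 in gamma_OFF. The 3 groups did not overlap, with CTRL in the middle. MEG3 was 1.53-fold lower in gamma_ON than in gamma_OFF (log2 difference -0.62, SE 0.12, adjusted p = 0.0294). Against CTRL neither group was called, at -0.25 in gamma_ON (adjusted p = 0.366) and 0.37 in gamma_OFF (adjusted p = 0.0804). The row is dim, with a mean below 6.17, the median of all array rows, and a second, still dimmer MEG3 row with a mean of 2.93 gave a difference of -0.06 between gamma_ON and gamma_OFF. The call was kept without gamma_OFF replicate 1 and lost without each of the other 5 arrays, with adjusted p values up to 0.166. It was also lost with array weights (0.0573), quantile normalization (0.0679), a fit to the 2 groups alone (0.0615) and the mean of both MEG3 rows (0.103).

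The 300 bases around a MEG3 start site, 250 before and 50 after it, are shown because MEG3 alone, of the 17 measured members with a RefSeq window, holds there the palindrome TGACGTCA, the cAMP response element bound by CREB family factors. It lies at chr14:100825858-100826157 on the plus strand of GRCh38.p14 (RefSeq), with the motif in capitals.
MEG3 promoter: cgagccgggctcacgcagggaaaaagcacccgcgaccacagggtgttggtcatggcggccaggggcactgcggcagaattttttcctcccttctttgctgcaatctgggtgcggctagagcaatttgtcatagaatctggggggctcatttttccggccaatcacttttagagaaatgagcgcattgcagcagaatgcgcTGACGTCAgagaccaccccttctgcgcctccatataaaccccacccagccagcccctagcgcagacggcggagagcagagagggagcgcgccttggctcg
All 3 MEG3 windows in the table hold this motif, which reads alike on both strands, and 1.85% of 35116 promoter windows of this length hold it. Binding was not measured here, and a match of letters is a description of the sequence.

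MEG9, the noncoding RNA at the far end of the domain, had 7.03 and 7.15 in CTRL, 7.02 and 7.13 in gamma_ON, and 7.28 and 7.49 in gamma_OFF. The gamma_OFF arrays lay above the other 4, but the difference of 0.29 from CTRL was not called (adjusted p = 0.157), and a second MEG9 row gave 0.31. RTL1, a protein derived from a retrotransposon and known from placenta and muscle, was not called. Its brighter row had 7.19 and 6.91 in CTRL, 6.97 and 7.09 in gamma_ON, and 7.11 and 7.31 in gamma_OFF, a difference of 0.16 between gamma_OFF and CTRL (adjusted p = 0.452). Its other row had 6.89 and 6.84, 6.67 and 6.89, and 6.56 and 7.02, and differed from CTRL by -0.07 in gamma_OFF, so the sign differs between the RTL1 rows.

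**Figure D2:**
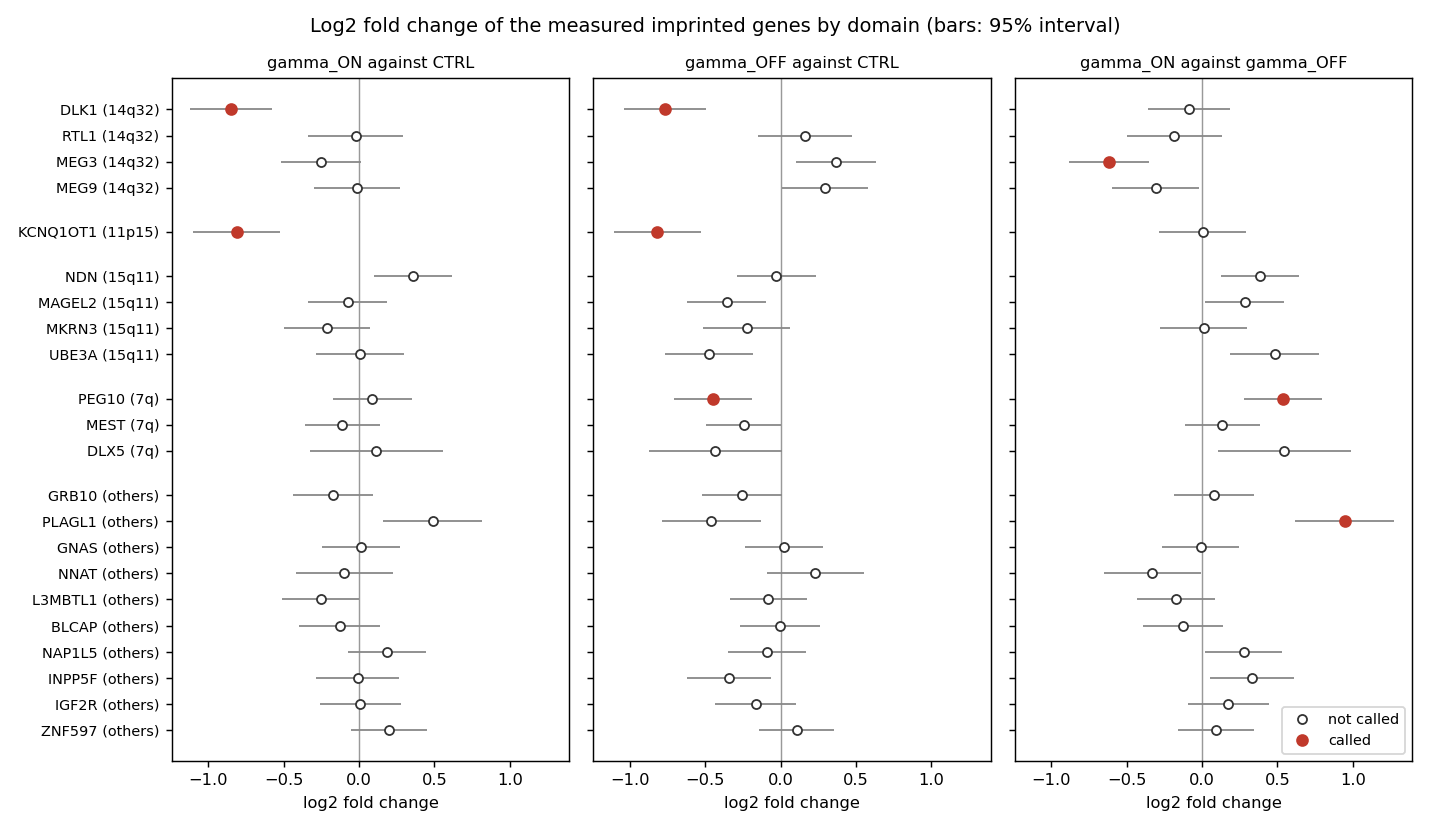
Log2 fold change (x axis) of each of the 22 measured imprinted genes (rows, grouped by domain) in gamma_ON against CTRL, gamma_OFF against CTRL and gamma_ON against gamma_OFF, with 95% intervals from the fit to all 6 arrays. Filled points passed the adjusted p of 0.05: 2, 3 and 3 genes in the 3 panels, from -0.85 for DLK1 in gamma_ON against CTRL to 0.95 for PLAGL1 in gamma_ON against gamma_OFF.

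Of 95 small RNA genes on 14q32, 52 were measured, all of them microRNA genes. MicroRNAs are cut from hairpins into short strands, and bases 2 to 8 of a strand, the seed, pair with target messages. In gamma_OFF against CTRL 5 rose: MIR299, MIR758, MIR381, MIR134 and MIR668. In gamma_ON against CTRL MIR656, the last of the row in chromosomal order, fell. The mature strands that RefSeq lists for these 6 genes follow, since an array row stands for the gene or its hairpin and does not separate the strands. They lie on the plus strand of chromosome 14 in GRCh38.p14, between 101023800 and 101066786, and the seed is in capitals.
hsa-miR-299-5p: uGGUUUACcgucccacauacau
hsa-miR-299-3p: uAUGUGGGaugguaaaccgcuu
hsa-miR-758-5p: gAUGGUUGaccagagagcacac
hsa-miR-758-3p: uUUGUGACcugguccacuaacc
hsa-miR-381-5p: aGCGAGGUugcccuuuguauau
hsa-miR-381-3p: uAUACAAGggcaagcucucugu
hsa-miR-134-5p: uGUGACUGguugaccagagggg
hsa-miR-134-3p: cCUGUGGGccaccuagucaccaa
hsa-miR-668-5p: uGCGCCUCgggugagcaug
hsa-miR-656-5p: aGGUUGCCugugagguguuca
hsa-miR-656-3p: aAUAUUAUacagucaaccucu
No seed is shared between the strands shown. The 90 mature sequences of the 52 measured genes hold 79 different seeds, and the seed of miR-381-3p is also that of miR-300, a measured member of the same row of genes. miR-758-5p and miR-134-5p share a run of 13 bases, ugguugaccagag, at different distances from their 5′ ends, so their seeds differ.

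MIR758 had log2 signals of 5.92 and 5.80 in CTRL, 6.18 and 6.31 in gamma_ON, and 6.71 and 6.52 in gamma_OFF. It rose by 0.76 in gamma_OFF (SE 0.13, adjusted p = 0.0125), and its 3 groups did not overlap. MIR134 had 7.09 and 6.77 in CTRL, 7.21 and 7.15 in gamma_ON, and 7.47 and 7.88 in gamma_OFF, a rise of 0.75 (SE 0.16, adjusted p = 0.0302). For MIR299, MIR381 and MIR668 the differences were 0.66 (adjusted p = 0.0274), 0.57 (adjusted p = 0.0489) and 0.76 (adjusted p = 0.0459). In all 5 genes both gamma_OFF arrays lay above both CTRL arrays, and the 2 groups did not overlap for 61.3% of all genes. The 5 were named because they were called higher, so arrays lying apart are no further result. MIR656 had 4.58 and 4.67 in CTRL, 3.94 and 3.98 in gamma_ON, and 4.29 and 4.13 in gamma_OFF, a fall of 0.67 in gamma_ON (SE 0.12, adjusted p = 0.0304), with -0.42 in gamma_OFF (adjusted p = 0.060). All 6 of these calls were lost without CTRL replicate 1 or CTRL replicate 2, with adjusted p values for MIR758 up to 0.107. MIR299, MIR381, MIR134 and MIR668 were called in 1 of the 6 fits with an array left out, the one without gamma_OFF replicate 1, and MIR656 was also lost without either gamma_ON array. The largest difference of the row, MIR1185-2 at 1.02 in gamma_OFF, was not called (adjusted p = 0.0568). Its log2 signal was 6.81 on gamma_OFF replicate 1 and 7.88 on gamma_OFF replicate 2, beside 6.16 and 6.48 in CTRL.

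The 5 calls among 52 genes are 9.62%, near the 11.8% called among 975 microRNA genes outside the imprinted clusters and the 8.85% called among all genes. The differences were positive for 43 of the 52 genes and for 640 of the 975 microRNA genes outside, with medians of 0.26 and 0.13. Among genes not below the median of all rows, 13 of 15 genes of the row and 251 of 338 outside were positive, with medians of 0.31 and 0.22. In gamma_ON against CTRL the median was 0.03 beside -0.06 outside, and in gamma_ON against gamma_OFF limma called 0 of the 52 (16 at an unadjusted p under 0.05, 30.8% beside 33.0% of all genes) and the median was -0.26 beside -0.19. The microRNA genes of the chromosome 19 cluster C19MC, which were added after values were seen, had 3 of 43 called higher in gamma_OFF against CTRL (6.98%) and a median of 0.20. In gamma_ON against gamma_OFF 5 of its 43 were called lower (11.6% beside 5.99% of all genes, and 7.59% of the microRNA genes outside), of which quantile normalization kept 1.

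**Figure D3:**
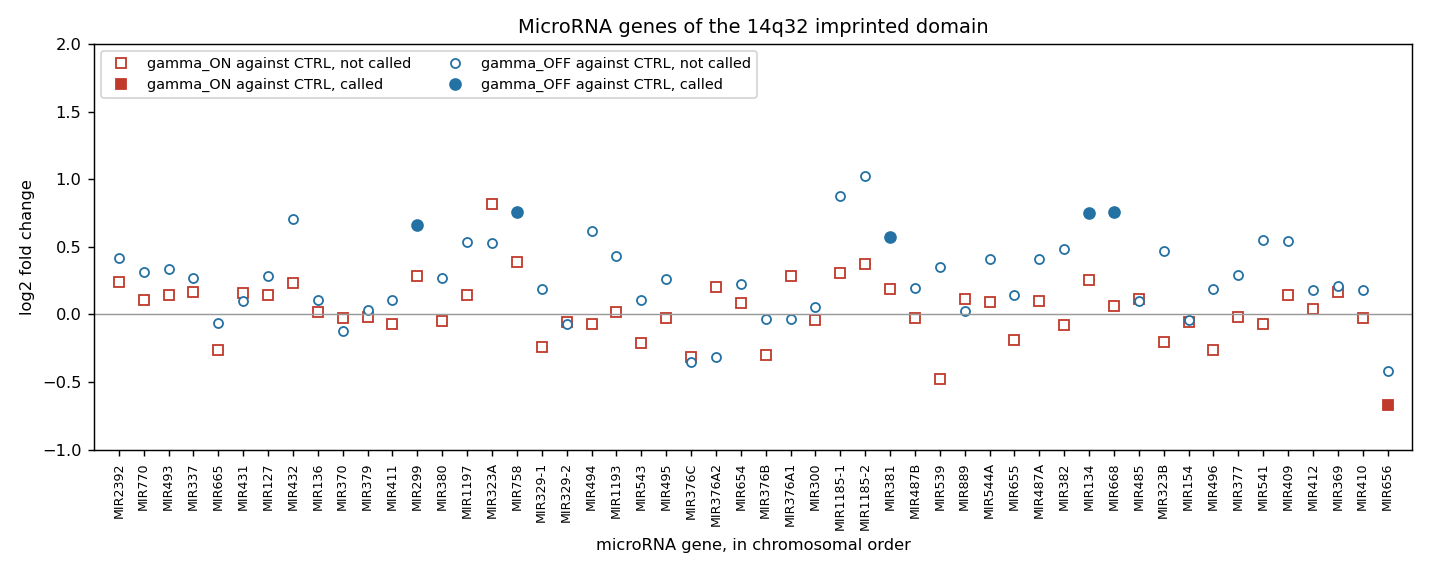
Log2 fold change (y axis) of the 52 measured 14q32 microRNA genes in chromosomal order (x axis) for gamma_ON against CTRL (squares) and gamma_OFF against CTRL (circles), with called genes filled. Most circles lie above 0, with a median of 0.26 and 5 filled, while the squares lie around 0, with a median of 0.03 and MIR656 filled at -0.67. Of 975 microRNA genes outside the imprinted clusters, 640 were also above 0 in gamma_OFF against CTRL.

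On 11p15 the only measured member was KCNQ1OT1, a long noncoding RNA that is read from the paternal copy antisense to the potassium channel gene KCNQ1 and is known to silence neighbouring genes on that copy. Its log2 signal was 7.53 and 7.77 in CTRL, 6.83 and 6.84 in gamma_ON, and 6.91 and 6.76 in gamma_OFF. As with DLK1, all 4 H2A.X arrays lay below both CTRL arrays. KCNQ1OT1 fell by 0.81 in gamma_ON (SE 0.13, 1.76-fold lower, adjusted p = 0.0196) and by 0.82 in gamma_OFF (SE 0.13, 1.76-fold lower, adjusted p = 0.0101). Between gamma_ON and gamma_OFF the difference was 0.01, with a 95% interval from -0.28 to 0.29. The gamma_ON call was lost without CTRL replicate 1 (adjusted p = 0.0529), CTRL replicate 2 (0.205), gamma_ON replicate 1 (0.164) or gamma_ON replicate 2 (0.136). The gamma_OFF call was lost without CTRL replicate 2 alone (0.0929).

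Among the genes that KCNQ1OT1 is known to silence, CDKN1C, PHLDA2, SLC22A18 and KCNQ1 had no named row. Other genes of the same stretch of 11p15 that are imprinted in mouse or human, named here after their values were seen, were measured. ASCL2, TSSC4, CD81, OSBPL5, NAP1L4 and TSPAN32 differed from CTRL by 0.00, 0.16, 0.01, 0.02, 0.01 and 0.12 in gamma_ON, with adjusted p values from 0.599 up. In gamma_OFF NAP1L4, a nucleosome assembly protein, differed by -0.41 (adjusted p = 0.119) and TSPAN32, a tetraspanin, by 0.36 (adjusted p = 0.0808), and ASCL2, TSSC4, CD81 and OSBPL5 by 0.23, 0.09, 0.14 and 0.00 (adjusted p from 0.353 up). A row of the readthrough transcript INS-IGF2, named after its values were seen, had 7.18 and 6.95 in CTRL, 7.42 and 7.89 in gamma_ON, and 7.50 and 7.67 in gamma_OFF. Its arrays lay above CTRL in both groups, and neither difference was called (0.59, adjusted p = 0.137, and 0.52, adjusted p = 0.0815). MIR483, the microRNA gene inside an IGF2 intron, had 7.81 and 7.79 in CTRL, 7.59 and 7.70 in gamma_ON, and 8.08 and 8.24 in gamma_OFF. It was lower in gamma_ON than in gamma_OFF (log2 difference -0.52, adjusted p = 0.0441), a call kept only without gamma_OFF replicate 1 when single arrays were left out (adjusted p up to 0.293).

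In the 15q11 domain, whose loss from the paternal or the maternal copy gives Prader-Willi and Angelman syndrome, limma called 0 of 4 measured members in each comparison, and 1, 2 and 3 passed an unadjusted p under 0.05 in gamma_ON against CTRL, gamma_OFF against CTRL and gamma_ON against gamma_OFF, as did 14.8%, 30.4% and 33.0% of all genes. UBE3A, the ubiquitin ligase imprinted in neurons and read from both copies in most other cells, came nearest. Its log2 signal was 9.42 and 9.48 in CTRL, 9.49 and 9.41 in gamma_ON, and 9.11 and 8.83 in gamma_OFF. The gamma_OFF arrays lay below the other 4, with differences of -0.47 from CTRL (adjusted p = 0.0542) and 0.48 between gamma_ON and gamma_OFF (adjusted p = 0.0588). NDN, which encodes the growth-restraining protein necdin, had 6.63 and 6.64 in CTRL, 7.05 and 6.94 in gamma_ON, and 6.65 and 6.56 in gamma_OFF. Both gamma_ON arrays lay above the others, at 0.36 over CTRL (adjusted p = 0.176) and 0.39 over gamma_OFF (adjusted p = 0.0706). MAGEL2, of the same MAGE protein family, differed from CTRL by -0.36 in gamma_OFF (adjusted p = 0.082), and MKRN3, a ring finger protein known for timing puberty, by -0.22 and -0.23 in gamma_ON and gamma_OFF (adjusted p = 0.481 and 0.257). All 4 differences between gamma_OFF and CTRL were negative, from -0.47 to -0.03, as were those of 7157 of all 14884 genes. Further imprinted genes of this region, named after their values were seen, went both ways. NPAP1 and PWRN1 differed by 0.13 and 0.11 (adjusted p = 0.534 and 0.794), and PWAR1, described below, by -0.56. None of the 83 small RNA genes of this domain had a named row.

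On 7q, PEG10, a paternally expressed protein of retrotransposon origin that placenta formation needs, was lower in gamma_OFF. Its log2 signal was 10.32 and 10.22 in CTRL, 10.40 and 10.32 in gamma_ON, and 9.78 and 9.86 in gamma_OFF. Both gamma_OFF arrays lay below the other 4, and CTRL and gamma_ON overlapped. PEG10 fell by 0.45 in gamma_OFF against CTRL (SE 0.12, 1.36-fold lower, adjusted p = 0.0468) and was 1.45-fold higher in gamma_ON than in gamma_OFF (log2 difference 0.54, SE 0.12, adjusted p = 0.0401). For gamma_ON against CTRL the difference was 0.09 (adjusted p = 0.795). Each PEG10 call was kept only without gamma_OFF replicate 1 when single arrays were left out, with adjusted p values up to 0.222 and 0.282 for the other 5 arrays. Quantile normalization took them to 0.127 and 0.126, array weights to 0.073 in both, and a fit to the 2 groups alone to 0.0822 and 0.0739.

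MEST, a paternally expressed hydrolase family protein on the same chromosome arm, differed from CTRL by -0.11 in gamma_ON and -0.25 in gamma_OFF (adjusted p = 0.715 and 0.171). Its 3 groups did not overlap, with 8.61 and 8.59 in CTRL, 8.51 and 8.46 in gamma_ON, and 8.37 and 8.33 in gamma_OFF. DLX5, a homeobox factor of bone and forebrain whose imprinting is disputed, was 0.55 higher in gamma_ON than in gamma_OFF, a difference that was not called (adjusted p = 0.0991). Its gamma_OFF arrays differed most among those of the measured 7q genes, at 7.43 and 7.98.

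Among the 10 measured members at other loci, PLAGL1 was the one gene called. PLAGL1, also known as ZAC, is a zinc finger factor that slows cell division and is expressed from the paternal copy on chromosome 6. Its log2 signal was 7.93 and 7.54 in CTRL, 8.17 and 8.27 in gamma_ON, and 7.29 and 7.25 in gamma_OFF. The groups did not overlap, with CTRL in the middle and farther apart than the other pairs. PLAGL1 was 1.93-fold higher in gamma_ON than in gamma_OFF (log2 difference 0.95, SE 0.15, adjusted p = 0.0134), the largest difference among the 22 members in any of the 3 comparisons. Against CTRL it was not called in either direction, at 0.49 in gamma_ON (adjusted p = 0.153) and -0.46 in gamma_OFF (adjusted p = 0.0771). The call was lost without gamma_ON replicate 1 (adjusted p = 0.124), gamma_ON replicate 2 (0.0825) or gamma_OFF replicate 2 (0.0702).

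RefSeq lists 5 start sites for PLAGL1, and the number of CG pairs in their 300-base windows runs from 2 to 39, beside a median of 14 over all promoter windows. The window richest in CG is shown because CG pairs are where an imprint is written. It lies at chr6:144008210-144008509 on the minus strand of GRCh38.p14 and is given as the strand is read, with the CG pairs in capitals.
PLAGL1 promoter: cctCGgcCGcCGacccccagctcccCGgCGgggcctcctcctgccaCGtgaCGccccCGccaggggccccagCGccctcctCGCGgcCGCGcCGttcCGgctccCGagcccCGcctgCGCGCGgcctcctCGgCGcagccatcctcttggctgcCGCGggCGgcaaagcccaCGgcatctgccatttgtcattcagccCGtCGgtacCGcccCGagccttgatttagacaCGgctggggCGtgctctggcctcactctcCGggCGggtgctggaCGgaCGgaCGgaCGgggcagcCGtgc
Methylation was not measured in these samples, and one array row stands for the gene, so the start sites were not separated.

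The other 9 of these members were not called in any comparison. INPP5F, an inositol phosphatase, had the next largest difference at -0.34 in gamma_OFF against CTRL (adjusted p = 0.103). NNAT, a small membrane protein of brain and endocrine tissue, differed by -0.33 between gamma_ON and gamma_OFF (adjusted p = 0.146). GRB10, an adaptor that dampens insulin and IGF receptor signalling, differed from CTRL by -0.18 and -0.26 in gamma_ON and gamma_OFF (adjusted p = 0.546 and 0.176). GNAS, the gene of the stimulatory G protein alpha subunit, differed by 0.01, 0.02 and -0.01 in the 3 comparisons, with 95% intervals between -0.27 and 0.28. IGF2R, the receptor that takes IGF2 out of circulation, differed by 0.01, -0.17 and 0.17. L3MBTL1, BLCAP, NAP1L5 and ZNF597 lay between -0.26 and 0.28 in every comparison.

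Of the 22 measured members 12 are listed as expressed from the paternal copy, 6 from the maternal copy and 4 by isoform. The 6 maternal genes include UBE3A, imprinted in neurons, IGF2R, whose imprinting is polymorphic in human, and DLX5, whose imprinting is disputed. Which copy these cells read was not measured, so the classes follow the list. Of the 12 measured paternally expressed genes, 2 fell in gamma_ON and 3 in gamma_OFF against CTRL, and 2 were higher in gamma_ON than in gamma_OFF (16.7%, 25% and 16.7%, beside 1.55%, 8.85% and 5.99% of all genes). Of the 6 genes listed as maternal, limma called 0 against CTRL in either group, and MEG3 was lower in gamma_ON than in gamma_OFF. At an unadjusted p under 0.05 the counts against CTRL were 0 in gamma_ON and 3 in gamma_OFF, which 14.8% and 30.4% of all genes passed. The 4 genes imprinted for some isoforms alone (GRB10, GNAS, BLCAP and INPP5F) had 0 calls by limma's contrasts or F test, with 0, 1 and 1 at an unadjusted p under 0.05 in the 3 comparisons. Medians in gamma_OFF against CTRL were -0.24 for paternal, -0.03 for maternal and -0.13 for isoform genes, and in gamma_ON against CTRL -0.09, 0.01 and -0.07. The difference between the classes was not tested.

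Protein-coding genes that flank the called loci and are not on the list of imprinted genes were read in the same fit, 5 measured genes on each side. Over all genes 1.55%, 8.85% and 5.99% were called in the 3 comparisons, so few calls are awaited among 10 genes. Around 14q32, from EVL to ANKRD9, limma called 0 of 10 in each comparison. At an unadjusted p under 0.05 the counts were 0, 0 and 1 of 10, beside 14.8%, 30.4% and 33.0% of all genes. The differences of these 10 from CTRL lay between -0.05 and 0.23 in gamma_ON and between -0.24 and 0.42 in gamma_OFF, beside -0.85 and -0.77 for DLK1. Around 11p15, limma called 0 of 10 in gamma_ON against CTRL (3 at an unadjusted p under 0.05, 30% beside 14.8% of all genes). In gamma_OFF 1 of 10 was called, SYT8, which was higher (0.56, adjusted p = 0.039). Around PEG10, OCM2 was higher in gamma_OFF (0.54, adjusted p = 0.0351), opposite in sign to PEG10. Around PLAGL1, STXBP5 was lower in gamma_OFF than in CTRL (-0.49, adjusted p = 0.0345) and PEX3 higher in gamma_ON than in gamma_OFF (0.73, adjusted p = 0.0405). The median of the 10 PLAGL1 neighbours in gamma_ON against gamma_OFF was 0.32. Each of these 4 neighbour calls was kept without gamma_OFF replicate 1 and lost without each of the other 5 arrays, with adjusted p values up to 0.282.

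A further list of 74 imprinted genes outside the 36 had 48 measured. Their calls were 1 of 48 in gamma_ON against CTRL, 4 in gamma_OFF against CTRL and 4 in gamma_ON against gamma_OFF (2.08%, 8.33% and 8.33%, beside 1.55%, 8.85% and 5.99% of all genes), with medians of 0.00, 0.07 and -0.04. In gamma_OFF 3 fell, each at a locus that also holds a listed member. GNAS-AS1, the paternally expressed antisense transcript of the GNAS locus, had 7.90 and 7.97 in CTRL, 7.38 and 7.002 in gamma_ON, and 7.09 and 7.36 in gamma_OFF, a fall of 0.71 in gamma_OFF (adjusted p = 0.0302) beside -0.75 in gamma_ON (adjusted p = 0.056). PWAR1, a noncoding RNA of the Prader-Willi region on 15q11, had 7.55 and 7.58, 7.08 and 6.85, and 7.03 and 6.98, a fall of 0.56 (adjusted p = 0.0303) beside -0.60 in gamma_ON (adjusted p = 0.052). In both, as in DLK1 and KCNQ1OT1, all 4 H2A.X arrays lay below both CTRL arrays. These genes were named because they were called lower than CTRL, so arrays lying apart are no further result. The arrays did not overlap for 52.4% of all genes in gamma_ON and 61.3% in gamma_OFF against CTRL, and the share with this shared order was not counted. PON2, a lactonase gene near PEG10, fell by 0.58 in gamma_OFF (adjusted p = 0.0436).

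WT1, the Wilms tumour factor, rose by 0.58 in gamma_OFF against CTRL (adjusted p = 0.021) and was lower in gamma_ON than in gamma_OFF (-0.57). CALCR, the calcitonin receptor, rose by 0.82 in gamma_ON against CTRL (adjusted p = 0.0389) and was 0.74 higher than in gamma_OFF. PON2 and RB1, the retinoblastoma gene, were higher in gamma_ON than in gamma_OFF by 0.67 and 0.60. Of these 9 calls in the 3 comparisons, none was kept whichever array was left out. All were lost without CTRL replicate 1 and without CTRL replicate 2, and the adjusted p rose to 0.303 for CALCR in gamma_ON.

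Genes that set or keep imprints, also listed with earlier results of these data known, had 19 of 29 measured. In gamma_ON against CTRL limma called 0 (7 at an unadjusted p under 0.05, 36.8% beside 14.8% of all genes), and the nearest was UHRF1, which brings the maintenance methyltransferase to newly copied DNA, at 0.56 (adjusted p = 0.0786). In gamma_OFF against CTRL 3 were called (15.8% beside 8.85% of all genes). DNMT3B, the de novo methyltransferase that marks pluripotent cells, had 11.92 and 11.97 in CTRL, 12.15 and 12.07 in gamma_ON, and 12.31 and 12.49 in gamma_OFF, a rise of 0.46 (adjusted p = 0.0489). DPPA3, which shields maternal methylation in the zygote, had 7.34 and 7.75, 7.63 and 7.14, and 6.77 and 6.88, a fall of 0.72 (adjusted p = 0.0489). ARID4B, a chromatin factor linked to the Prader-Willi control region, fell by 0.45 (adjusted p = 0.0419). TET2, which oxidises methylcytosine, was 0.61 higher in gamma_ON than in gamma_OFF (adjusted p = 0.0424). DNMT1, TRIM28, ZFP57 and ZNF445, the maintenance methyltransferase and the zinc finger system that guards imprints, were not called in any comparison. Each of the 4 calls was lost without either CTRL array, without either gamma_ON array and without gamma_OFF replicate 2, with adjusted p values up to 0.292.

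IGF2, IGF2R and GRB10 act on the insulin-like growth factor pathway. Of 24 other genes listed for that pathway or as relatives of its genes, 21 were measured. The list was chosen with earlier results of these data known, so its share of calls is no test of the pathway. In gamma_OFF against CTRL 7 of 21 were called (33.3% beside 8.85% of all genes), 1 higher and 6 lower, with a list median of -0.33. In gamma_ON against CTRL 1 of 21 was called (4.76% beside 1.55% of all genes) and the median was -0.17. At an unadjusted p under 0.05 the count in gamma_ON was 7 of 21, or 33.3% beside 14.8% of all genes, and in gamma_OFF 12 of 21, or 57.1% beside 30.4%. IRS4, a docking protein of the insulin and IGF receptors, fell with both forms of H2A.X. Its log2 signal was 7.45 and 7.67 in CTRL, 6.59 and 6.56 in gamma_ON, and 6.64 and 6.52 in gamma_OFF, a fall of 0.98 in each comparison (adjusted p = 0.00751 in gamma_ON and 0.00604 in gamma_OFF). The gamma_ON call of IRS4 was lost without CTRL replicate 2, gamma_ON replicate 1 or gamma_ON replicate 2 (adjusted p up to 0.102), and the gamma_OFF call without CTRL replicate 2 (0.0512).

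The IGF binding proteins hold IGFs outside the cell, and IGFBP5 fell most in gamma_OFF of the 21 genes. IGFBP5 had 10.20 and 9.88 in CTRL, 9.65 and 9.49 in gamma_ON, and 8.73 and 9.08 in gamma_OFF, and fell by 1.13 (adjusted p = 0.00809). IGFBP7 fell by 0.91 (adjusted p = 0.0201). IGF2BP2, which binds IGF2 messages, STC2, an inhibitor of the protease that frees IGFs, and M6PR, a sorting receptor for mannose 6-phosphate, fell by 0.69, 0.67 and 0.53 (adjusted p = 0.0159, 0.0497 and 0.0426). STC1, related to STC2, had 9.31 and 9.23 in CTRL, 9.37 and 9.30 in gamma_ON, and 10.02 and 10.28 in gamma_OFF, and rose by 0.88 (adjusted p = 0.00848). In gamma_ON against gamma_OFF 4 of 21 were called (19.05% beside 5.99%), with IGFBP5, IGFBP7 and GRB14 higher and STC1 lower in gamma_ON. Each of these 4 calls was lost without either gamma_ON array and without gamma_OFF replicate 2, IGFBP5 in all 6 fits with an array left out, and GRB14 in all but that without gamma_OFF replicate 1. None of the 7 gamma_OFF calls was kept whichever array was left out: IGFBP5 was lost without CTRL replicate 1 (adjusted p = 0.0554), STC1 without CTRL replicate 2 (0.0706), IGFBP7 without CTRL replicate 1 or gamma_OFF replicate 2 (up to 0.120), and IGF2BP2, STC2 and M6PR without either CTRL array and without gamma_OFF replicate 2 (up to 0.282 for STC2). STC2 and M6PR were also lost without either gamma_ON array.

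**Figure D4:**
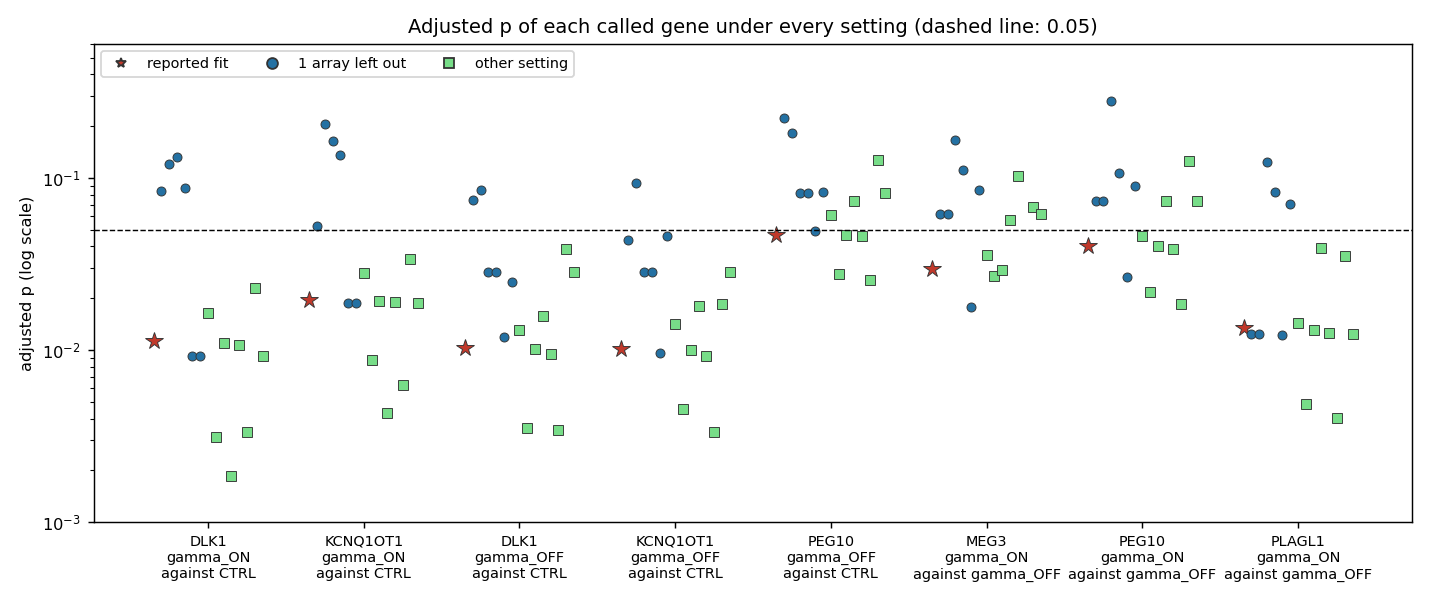
Adjusted p (y axis, log scale) of the 8 calls among the imprinted genes (x axis) in the reported fit (stars), with 1 array left out (circles) and under other settings (squares), with the threshold of 0.05 as a dashed line. DLK1 and KCNQ1OT1 stay under the line in every square and PLAGL1 too, while both PEG10 calls and the MEG3 call have squares above it, and every call has circles above it.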

How the data were processed

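Total RNA from 6 samples was hybridised to Affymetrix human gene arrays, 1 array per sample, and samples were grouped by their descriptions. The deposited values are log2 expression levels made by the authors with RMA, which corrects background, normalizes between arrays and summarizes probes, and with Partek 6.6, per the submitters' processing notes. The build and annotation behind the table are not given in those notes or in the labels. Raw scanner values were not used here.

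Of 53617 rows, a platform annotation table named 16098 with 1 gene symbol, 0 with several and left 37519 unnamed here. The identifiers of all 16098 were found in RefSeq's gene table for GRCh38.p14. For 779 genes more than 1 row was named, and the brightest by mean over the arrays stood for the gene, giving 14884 genes.

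limma 3.58.1 (lmFit and eBayes) in R 4.3.3 was fitted to the 3 groups at once, with 3 residual and 6.05 prior degrees of freedom. P-values of the 3 two-sided contrasts and of the moderated F test were adjusted over the 14884 genes by the Benjamini-Hochberg method, and all adjusted p-values are limma's. Intervals are 95% and unadjusted. The precision is limited by the 2 arrays a group, and the p-values reflect how these samples vary, which may be technical variation only.

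The members and the lists beside them were chosen with earlier results of these data known. Called members and members whose rows disagree in sign are given array by array, others by range, with up to 4 per domain named by the size of their difference, and lists by counts, medians, called genes and up to 3 others. Values of UHRF1 and of the array-by-array list genes were picked after they were seen, and so were the names DNMT1, TRIM28, ZFP57 and ZNF445. Alternatives left out each array, used the replicate number as a block, trend or robust eBayes, array weights, the 2 groups alone, the mean of a gene's rows, no dim genes (mean below 6.17), quantile normalization and a threshold of 0.10. The scripts were tested on values simulated for gamma_ON against CTRL (14884 genes): of 100 genes shifted by 1 log2 unit 75% were recovered and of 100 shifted by 2 units 96%, with 6 false calls among 177.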

Additional observations from a re-analysis of the deposited data

How the results depend on the processing

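With 1 array left out, the lone array of its group is assumed to vary like the others and 1 residual degree of freedom fewer is left. The number of imprinted genes called then ran from 0 to 2 for gamma_ON against CTRL, 0 to 5 for gamma_OFF against CTRL, 0 to 8 for gamma_ON against gamma_OFF and 1 to 7 for the F test, beside 2, 3, 3 and 5 in the reported fit. Of these fits, that without gamma_OFF replicate 1 gave the highest counts in gamma_OFF against CTRL and gamma_ON against gamma_OFF. This held for the imprinted genes and for all genes. In that fit gamma_OFF rests on replicate 2 alone, the array whose values stood apart. In gamma_ON against CTRL the counts were the same without either gamma_OFF array. Without dim genes 5 of 20 members were called in gamma_OFF against CTRL, beside 16.3% of all genes kept. At a threshold of 0.10 the counts were 7 in gamma_OFF against CTRL and 6 in gamma_ON against gamma_OFF, beside 19.8% and 21.0% of all genes. Array weights, quantile normalization and a fit to the 2 groups alone each left 1 call in gamma_ON against gamma_OFF, beside 1.54%, 3.15% and 1.85% of all genes. Quantile normalization left 3 by the F test. No called difference changed sign. Over all members, comparisons and settings, 924 of the values kept their side of the threshold, 40 lost it and 20 gained it. All 40 losses fell on calls of the reported fit, while most of the 924 belong to genes that it did not call. The 924 are thus no measure of how stable the calls were. Quantile normalization moved the median of all genes by -0.01, 0.02 and -0.03 in the 3 comparisons. It kept, in gamma_OFF against CTRL, 5 of the 7 calls of the IGF list, 2 of the 5 of the 14q32 microRNA genes, 3 of the 4 of the further imprinted genes and 1 of the 3 of the imprint-keeping genes.

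Samples of different groups share only a replicate number. Deviations of same-numbered samples from their group means correlated at -0.10 (CTRL and gamma_ON), -0.07 (CTRL and gamma_OFF) and 0.09 (gamma_ON and gamma_OFF). With the replicate number as a block, 2, 2 and 3 members were called in the 3 comparisons, beside 1.41%, 8.36% and 5.85% of all genes. The F test called 4, and the member's call lost among the comparisons was PEG10 in gamma_OFF against CTRL (adjusted p = 0.0607). Other calls named above that the block ended were DNMT3B (0.0617), DPPA3 (0.0565), ARID4B (0.0557), STC2 (0.0572) and MIR381 (0.0515) in gamma_OFF against CTRL, and GRB14 (0.0549) and IGFBP5 (0.0533) in gamma_ON against gamma_OFF. The array files give no signal over background, so what dim rows such as MEG3 and MIR656 can resolve is unknown.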
